A study of Arabidopsis thaliana with 12 samples.

Results

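The 10 genes described here encode WRKY transcription factors that earlier work ties to abscisic acid (ABA) signalling, to defence or to both: WRKY18 (AT4G31800), WRKY40 (AT1G80840), WRKY60 (AT2G25000), WRKY33 (AT2G38470), WRKY46 (AT2G46400), WRKY53 (AT4G23810), WRKY54 (AT2G40750), WRKY57 (AT1G69310), WRKY63 (AT1G66600) and WRKY6 (AT1G62300). They were listed by locus identifier, with no threshold on measured values though with earlier results of these data known, and are 10 of the 36796 loci in the counts table. All 10 passed the filter on low counts that left 22341 loci for testing. The reference gene table names 72 WRKY genes in all, of which 54 passed the filter, and the other 62 (44 tested) serve here as the family background.

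Messenger RNA was sequenced from Arabidopsis thaliana Col-0 plants aged 5 to 6 weeks, whose rosettes had been sprayed 4 h earlier with 50 µM ABA or with ethanol, the vehicle (control). The 12 libraries form 6 groups of 2 biological replicates: wild-type guard cell preparations with ABA and as control, leaves of the abf1/2/3/4 mutant with ABA and as control, and wild-type leaves with ABA and as control. The abf1/2/3/4 mutant carries mutations in the genes for ABF1, ABF2, ABF3 and ABF4, the bZIP factors that drive much of the transcriptional response to ABA. The labels do not give the number of plants behind a library. For guard cells, RNA was taken from epidermal fragments with the Qiagen RNeasy kit, and for whole leaves with the Spectrum kit, so cell type, isolation and kit cannot be told apart where guard cells are set against leaves.

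ABA is the hormone that closes stomata in drought and holds back germination, and it is known to act against salicylic acid dependent defence in many settings. WRKY factors are a plant family named after a conserved peptide, and they bind W-box DNA (TTGACC or TTGACT, with TTGAC as core). Many WRKY genes carry W-boxes in their own upstream regions and are known to be controlled by other WRKY factors, while ABF factors bind ABA-responsive elements (ABRE, core ACGTG), of which the G-box CACGTG is the palindromic form. Among the members, WRKY18, WRKY40 and WRKY60 form the small group IIa, bind one another and repress several ABA response genes such as ABI5. WRKY33 is needed for camalexin production and for resistance to necrotrophic fungi. WRKY46, WRKY53 and WRKY54 belong to group III and are known from salicylic acid responses and leaf senescence. WRKY57 raises drought tolerance when overexpressed, WRKY63 (named ABO3 in the reference) is known from ABA-hypersensitive mutants, and WRKY6 acts in senescence, phosphate transport and ABA responses of seeds.

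Upstream sequences of the members the results turn on are shown here, with the letters that WRKY and ABF factors are known to bind. Whether they have a part in the values below was not tested. They were read from the RefSeq TAIR10.1 assembly, in which all 10 members were found by locus identifier. The first pair shows clusters of W-boxes before WRKY18 and WRKY60, with W-boxes in capitals in whichever orientation they occur (AGTCAA and GGTCAA are W-boxes read on the opposite strand).
WRKY18: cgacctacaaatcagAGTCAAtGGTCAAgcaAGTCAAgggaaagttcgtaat
WRKY60: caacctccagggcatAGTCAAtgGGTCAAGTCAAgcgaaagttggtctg
The WRKY18 stretch lies at chr4:15382026-15382077 (plus strand), 751 to 700 bases before the annotated gene start, and the WRKY60 stretch at chr2:10629010-10629058 (plus strand), 652 to 604 bases before it. Each holds 3 W-boxes in the same order and orientation, and the last pair in WRKY60 shares a base. Of 27443 upstream regions of 1000 bases in the annotation, 25 (0.0911%) had 3 W-boxes whose starts lay within 20 bases, and these 2 members are among them. The limits of 3 W-boxes and 20 bases were chosen after these clusters were seen. The share is therefore a description and not a test of rarity. The next pair shows the W-boxes of WRKY40, with an ABRE core in capitals too, and the W-boxes of WRKY33 nearest to its start.
WRKY40: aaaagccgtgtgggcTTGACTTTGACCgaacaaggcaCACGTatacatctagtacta
WRKY33: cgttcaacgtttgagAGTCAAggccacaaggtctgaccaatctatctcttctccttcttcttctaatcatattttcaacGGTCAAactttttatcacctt
The WRKY40 stretch (chr1:30382733-30382789, plus strand) lies 828 to 772 bases before the gene start and pairs adjoining W-boxes with an ABRE core on the opposite strand. The WRKY33 stretch (chr2:16108124-16108223, plus strand) lies 111 to 12 bases before the start and holds 2 of the 4 W-boxes in its 1000 bases. The last pair shows the G-boxes, the only ones found among the 10 upstream regions of 1000 bases.
WRKY57: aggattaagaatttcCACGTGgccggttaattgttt
WRKY6: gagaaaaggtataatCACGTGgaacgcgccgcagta
These lie 554 to 519 bases before WRKY57 (chr1:26058902-26058937, minus strand) and 990 to 955 bases before WRKY6 (chr1:23020449-23020484, minus strand). A G-box occurred in 14.8% of all 27443 regions of that length, a W-box in 67.3% and an ABRE core in 54.4%. WRKY57 had 3 matches to the ABRE core, 2 of them the G-box read on either strand, and was the only member with no W-box core in 1000 bases, whereas 88.1% of all regions had at least 1. WRKY6 had 2 matches, both from its G-box. WRKY40 had 5 ABRE cores, WRKY33 and WRKY54 had 2 each, WRKY60 and WRKY46 had 1 each, and WRKY18, WRKY53 and WRKY63 had none. A match of letters is a description of these windows and does not show that a factor binds there.

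**Figure D1:**
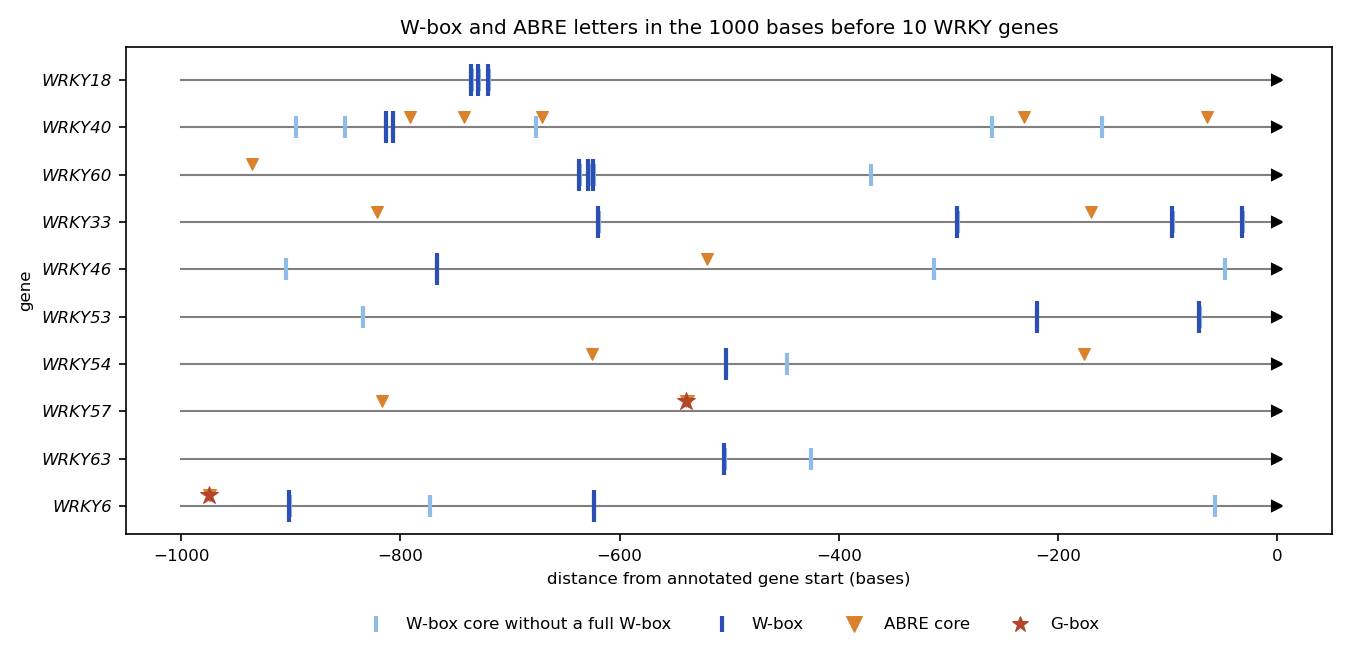
Positions of W-box cores, full W-boxes, ABRE cores and G-boxes on either strand in the 1000 bases before each of the 10 genes, with the distance from the annotated gene start in bases on the horizontal axis. The W-boxes of WRKY18 and WRKY60 are packed together, and the WRKY57 line carries ABRE marks and no W-box.

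The coding sequences were searched for the codons of the signature peptide that gave the family its name. It was found once in 9 members and in 2 copies in WRKY33, at codons 189 and 367 of 519, as is known of group I members with paired WRKY domains. Predicted protein lengths ran from 241 codons for WRKY63 to 553 for WRKY6.

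Library totals ran from 25294558 to 47116819 counts. The targeted genes checked the mutant label: all 4 were called lower in mutant leaves at control and under ABA, and their summed normalised read counts were 75.9 and 75.0 cpm in mutant leaves with ABA and 50.2 and 43.2 cpm in control mutant leaves, against 897 and 918 cpm in ABA-treated and 127 and 129 cpm in control wild-type leaves. Here cpm are counts scaled by library size and TMM factor, and reads of the 4 genes remained in every mutant library. The 6 guard cell markers summed to 407 and 393 cpm in guard cells with ABA and 1236 and 1178 cpm in control guard cells, against 63.1 and 76.8 cpm in ABA-treated and 102 and 123 cpm in control wild-type leaves. All 6 were higher in guard cells than in wild-type leaves in both conditions, the 4 vasculature markers were higher too, the 5 mesophyll markers were lower, and no marker was at 0. The 4 epidermis markers did not move together between guard cells and wild-type leaves at control, where 2 were called higher and 1 lower: CUT1 had 933 and 860 cpm in control guard cells, against 330 and 331 cpm in control wild-type leaves, and PDF2 had 67.5 and 65.9 cpm, against 72.0 and 76.4 cpm. Under ABA 2 of the 4 were called, both lower in guard cells. Guard cell markers also moved with ABA in guard cells, where 5 of 6 fell and 1 rose.

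One library stood apart. Of 16959 well-covered genes, 2.09% differed more than 2-fold between the replicates of control mutant leaves, against 0.118 to 0.513% in the other groups. Replicate 2 had the higher value for 9 of the 10 members, for 42 of the other 62 WRKY genes and for all 17 genes of a salicylic acid and defence list, whose summed level was 2038 cpm there and 865 cpm in replicate 1. The members summed to 824 cpm in replicate 2 and 424 cpm in replicate 1, and the ratio of the higher to the lower replicate had a median of 1.86 over the members in that group, against 1.08 to 1.24 in the other groups. WRKY46 differed most, at 49.7 cpm in replicate 2 and 8.36 cpm in replicate 1. Results of the members that use control mutant leaves are therefore given with and without replicate 2, as are the list counts and named genes for ABA in mutant leaves.

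**Figure D2:**
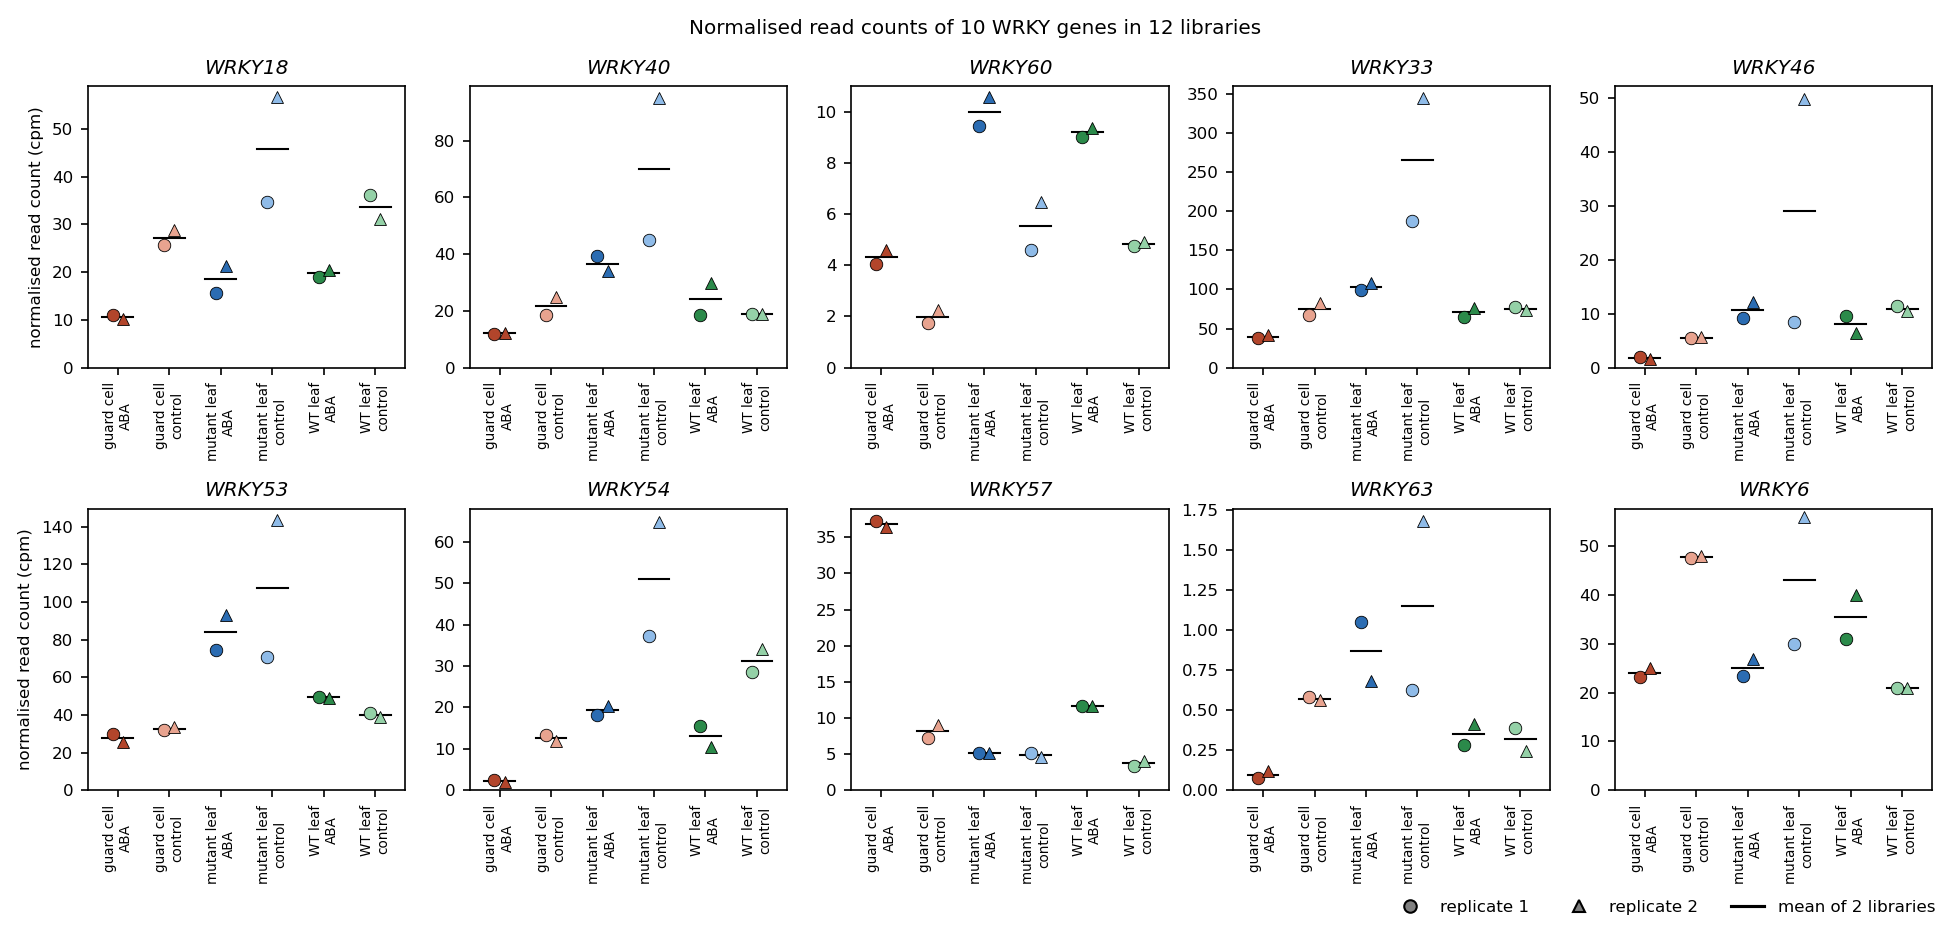
Normalised read count (cpm, linear axes that start at 0 and differ between panels) of each gene in all 12 libraries, with circles for replicate 1, triangles for replicate 2 and a line at the mean of the 2 libraries. WRKY57 is highest in guard cells with ABA, at 36.5 to 37.3 cpm, and the control mutant leaves show the widest gap between replicates for most genes.

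In guard cells and in mutant leaves ABA lowered more of the members than it raised, and in wild-type leaves it raised 3 and lowered 2. In guard cells 8 of 10 were called at an adjusted p under 0.05 (edgeR quasi-likelihood F-test, Benjamini-Hochberg adjustment across the 22341 loci), 2 higher and 6 lower, where 57.5% of all tested genes were called, 29% higher and 28.5% lower. In wild-type leaves 5 were called, 3 higher and 2 lower, where 61.1% of all genes were called, 27.5% higher and 33.7% lower. In mutant leaves 6 were called, 1 higher and 5 lower, where 34.4% were called, 18.9% higher and 15.5% lower. Without replicate 2 of control mutant leaves, 4 were called there, 1 higher and 3 lower, against 27% of all genes, and without replicate 1 in its place 8 were called. The median log2 fold change of the members was -0.95 in guard cells, -0.85 in mutant leaves and 0.24 in wild-type leaves, and over all tested genes it was -0.02, 0.01 and -0.08 in the same order. Without replicate 2 of control mutant leaves, mutant values were above 0 for WRKY60 (1.12), WRKY63 (0.51), WRKY46 (0.33), WRKY53 (0.24) and WRKY57 (0.01). They were below 0 for WRKY54 (-0.96), WRKY18 (-0.93), WRKY33 (-0.85), WRKY40 (-0.29) and WRKY6 (-0.26). The median of the members was not taken for that fit. The other WRKY genes had medians of -0.49, -0.27 and 0.04, with 12 called higher and 19 lower of 44 in guard cells, 7 and 12 in mutant leaves (7 and 7 without replicate 2 of the control), and 14 and 13 in wild-type leaves. In these bulk libraries, fewer cells of a type and less RNA per cell cannot be told apart.

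**Figure D3:**
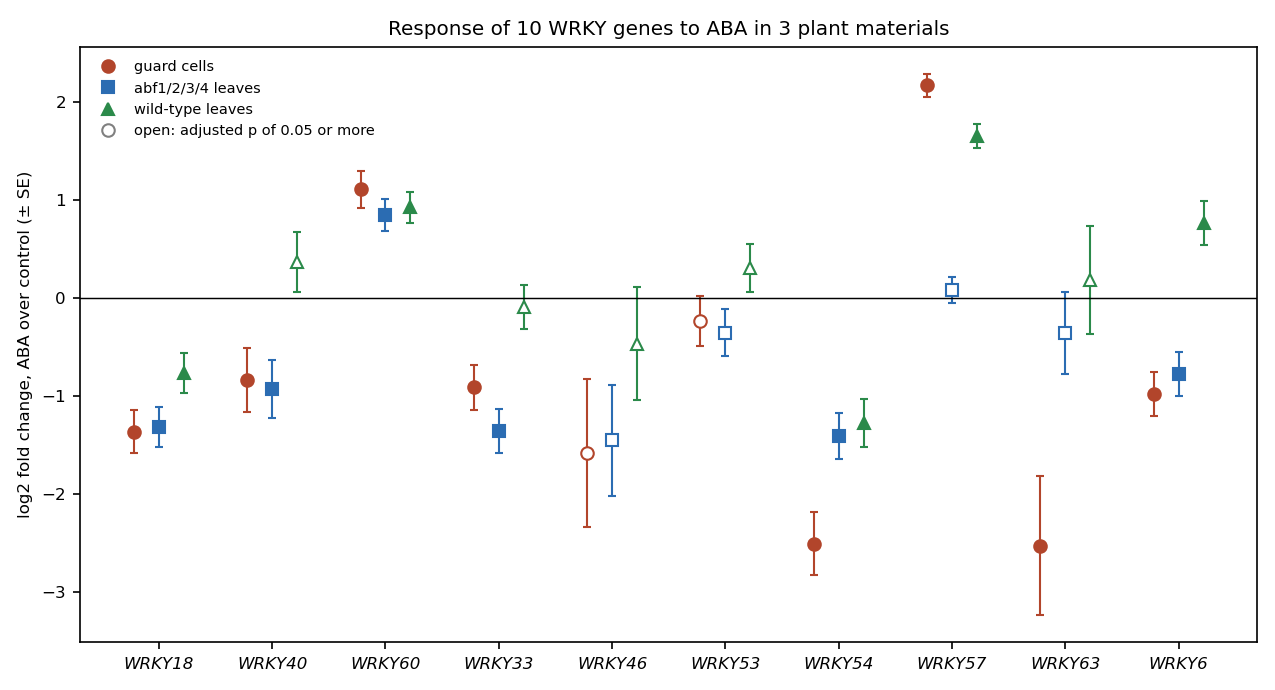
The log2 fold change of ABA over control (± SE) for each gene in guard cells, abf1/2/3/4 leaves and wild-type leaves, from one fit over 12 libraries. Open symbols mark an adjusted p of 0.05 or more. WRKY60 lies above 0 and WRKY18 and WRKY54 below 0 in all 3 materials, while WRKY6 lies above 0 in wild-type leaves only.

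WRKY60 and WRKY18, the group IIa genes that share the clustered W-boxes, moved in opposite directions under ABA in all 3 materials. WRKY60 had 4.04 and 4.61 cpm in guard cells with ABA, against 1.75 and 2.24 cpm in control guard cells. It had 9.45 and 10.6 cpm in mutant leaves with ABA, against 4.599 and 6.487 cpm in control mutant leaves, and 9.01 and 9.36 cpm in wild-type leaves with ABA, against 4.75 and 4.92 cpm in control wild-type leaves. Every ABA library stood above both controls of its material. The log2 fold changes by edgeR's quasi-likelihood test were 1.11 in guard cells (SE 0.192, adjusted p = 0.000507), 0.85 in mutant leaves (SE 0.163, adjusted p = 0.002307) and 0.93 (SE 0.161, adjusted p = 0.0004397) for the wild-type leaf. Neither the mutant minus wild-type leaf response (log2 -0.08, SE 0.229, adjusted p = 0.8376) nor the guard cell minus wild-type leaf response (log2 0.18, SE 0.250, adjusted p = 0.6736) was called for this gene by the same test. Without replicate 2 of control mutant leaves the mutant value was 1.12 (edgeR adjusted p = 0.000518) and the mutant minus wild-type difference 0.19 (adjusted p = 0.5438).

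WRKY18 fell instead. It had 11 and 10.1 cpm in guard cells with ABA, against 25.7 and 28.7 cpm in control guard cells. In mutant leaves it had 15.6 and 21.3 cpm with ABA, against 34.7 and 56.6 cpm in control, and in wild-type leaves 19.0 and 20.5 cpm with ABA, against 36.1 and 31.1 cpm in control. The groups did not overlap in any of the 3 materials. The edgeR log2 fold changes were -1.37 in guard cells (adjusted p = 0.0002768), -1.32 in mutant leaves (adjusted p = 0.0006473) and -0.77 in wild-type leaves (adjusted p = 0.006621), and without replicate 2 of control mutant leaves the mutant value was -0.93 (adjusted p = 0.0009708). The log2 difference between the guard cell and wild-type leaf responses was -0.60 (SE 0.296, adjusted p = 0.2038) and was not called.

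WRKY40, also of group IIa and a repressor that acts with WRKY18 in powdery mildew susceptibility, had a less settled response. It had 11.8 and 12.4 cpm in guard cells with ABA, against 18.5 and 24.8 cpm in control guard cells, 39.3 and 34.1 cpm in mutant leaves with ABA, against 45.0 and 95.1 cpm in control mutant leaves, and 18.6 and 30.0 cpm in wild-type leaves with ABA, against 18.8 and 19.1 cpm in control wild-type leaves. The wild-type leaf groups overlapped and the other pairs did not. The log2 fold change was -0.84 in guard cells (SE 0.326, edgeR adjusted p = 0.04584), and this call was lost when guard cell ABA replicate 1 (-0.80), guard cell ABA replicate 2 (-0.88) or control guard cell replicate 2 (-0.61) was left out. In mutant leaves it was -0.93 (SE 0.296, edgeR adjusted p = 0.03217), but -0.29 without replicate 2 of the control (adjusted p = 0.3593), and -1.04 and -0.83 without ABA replicate 1 or 2, neither of them called. In wild-type leaves it was 0.37 (SE 0.307, edgeR adjusted p = 0.3213). A small share of the WRKY40 exon bases, 3.85%, lies in a locus on the opposite strand, and 4.07% of its 50-base words occur elsewhere in the genome.

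WRKY33 was the most abundant member per kilobase of exon in 5 of the 6 groups, with group means from 19.6 cpm per kb in guard cells with ABA to 131 cpm per kb in control mutant leaves. In mutant leaves with ABA it stood at 51.2 ± 3.32 cpm per kb, and WRKY53 at 55.4 ± 8.72 cpm per kb (SD, n = 2), which does not exceed their spread. It had 37.7 and 41.7 cpm in guard cells with ABA, against 67.1 and 82.3 cpm in control guard cells. It had 99.0 and 109 cpm in mutant leaves with ABA, against 187 and 345 cpm in control mutant leaves, and 64.8 and 76.8 cpm in wild-type leaves with ABA, against 77.2 and 73.9 cpm in control wild-type leaves. The wild-type leaf groups overlapped. WRKY33 fell in guard cells by edgeR's test (log2 -0.91, SE 0.226, adjusted p = 0.005145) and in mutant leaves (log2 -1.36, SE 0.221, adjusted p = 0.0008542), and the value in wild-type leaves was -0.09 (SE 0.220, adjusted p = 0.7392). Without replicate 2 of control mutant leaves the mutant value was -0.85 (adjusted p = 0.0004284), still called.

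The group III genes of salicylic acid responses split. WRKY54, known with WRKY70 to limit salicylic acid production and senescence, had 2.52 and 1.89 cpm in guard cells with ABA, against 13.4 and 11.9 cpm in control guard cells. In mutant leaves it had 18.3 and 20.3 cpm with ABA, against 37.4 and 64.9 cpm in control, and in wild-type leaves 15.5 and 10.5 cpm with ABA, against 28.5 and 34.0 cpm in control. Within each material, ABA and control libraries did not overlap. WRKY54 fell in all 3 materials by edgeR's quasi-likelihood test, with log2 fold changes of -2.51 in guard cells (SE 0.321, adjusted p = 5.431e-05), -1.41 in mutant leaves (SE 0.237, adjusted p = 0.001048) and -1.28 (SE 0.243, adjusted p = 0.0008095) in those of the wild type. Without replicate 2 of control mutant leaves the mutant value was -0.96 (edgeR adjusted p = 0.002284). The guard cell response exceeded the wild-type leaf response by -1.23 (log2, SE 0.410), which was not called (edgeR adjusted p = 0.06816) except with total-count scaling, without a filter on low counts, with only the libraries compared or with DESeq2.

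WRKY46, a basal resistance factor that is also known from stomatal responses to drought, had 2.04 and 1.66 cpm in guard cells with ABA, against 5.42 and 5.68 cpm in control guard cells. These groups did not overlap, but the log2 value of -1.58 had an SE of 0.755 and was not called (edgeR adjusted p = 0.0949). All 6 groups share one estimate of the spread in this fit. With only the 4 guard cell libraries in the fit, the same log2 value (-1.58) was called. In mutant leaves the gene had 9.11 and 12.2 cpm with ABA and 8.36 and 49.7 cpm in control, and in wild-type leaves 9.51 and 6.49 cpm with ABA and 11.4 and 10.5 cpm in control. Neither was called (log2 -1.46, edgeR adjusted p = 0.06868, and log2 -0.47, adjusted p = 0.513), and the mutant value was 0.33 without replicate 2 of the control and -2.24, which was called, without replicate 1.

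WRKY53, an early regulator of leaf senescence, was not called for ABA in any material in the fit over 12 libraries. It had 30.0 and 25.5 cpm in guard cells with ABA, against 31.8 and 33.5 cpm in control guard cells. In mutant leaves it had 74.5 and 93.2 cpm with ABA and 71.0 and 144 cpm in control, and in wild-type leaves 49.6 and 49.1 cpm with ABA, against 41.3 and 38.6 cpm in control. The log2 values were -0.23 in guard cells (SE 0.254, edgeR adjusted p = 0.4529), -0.36 in mutant leaves (SE 0.240, adjusted p = 0.2812) and 0.30 in wild-type leaves (SE 0.245, adjusted p = 0.3049). With only the libraries compared in the fit, it was called in guard cells (log2 -0.23, edgeR adjusted p = 0.03322). It was also called in wild-type leaves in such a fit (log2 0.37, edgeR adjusted p = 0.003224). Only the mutant leaf groups overlapped, and without replicate 2 of the control the mutant value was 0.24, and without replicate 1 it was -0.78 and called. Of its exon bases 20.5% also lie in a protein-coding locus on the opposite strand, and whether the counting used strand is not given in the sources used here, so its reads cannot be fully told apart from those of the neighbour.

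WRKY57 was the member most raised by ABA, and its response was seen in both wild-type materials and not detected in the mutant. It had 37.3 and 36.5 cpm in guard cells with ABA, against 7.29 and 9.04 cpm in control guard cells. It had 5.17 and 5.20 cpm in mutant leaves with ABA, against 5.16 and 4.62 cpm in control mutant leaves, and 11.7 and 11.6 cpm in wild-type leaves with ABA, against 3.36 and 4.03 cpm in control wild-type leaves. ABA and control stood well apart in guard cells and wild-type leaves and almost met in mutant leaves. In guard cells it rose 4.51-fold (log2 2.17, SE 0.115, edgeR adjusted p = 5.254e-08) and in wild-type leaves 3.15-fold (log2 1.65, SE 0.125, adjusted p = 6.965e-07). In mutant leaves the log2 value was 0.08 (SE 0.133, edgeR adjusted p = 0.6741), or -0.07 with total-count scaling, and 0.01 without replicate 2 of the control. WRKY57 and WRKY6 are the members with a G-box shown above, and of them only WRKY57 had no W-box core. Whether these letters have a part in the WRKY57 response was not tested.

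The test of the difference itself was called for WRKY57: the mutant response was lower than the wild-type leaf response by a log2 value of -1.57 (SE 0.183, edgeR adjusted p = 8.608e-05), and by -1.65 without replicate 2 of control mutant leaves (adjusted p = 0.0001062). Among all tested genes, 9.75% had a larger absolute difference. The guard cell response was 0.52 above that of wild-type leaves on the log2 scale (SE 0.169), not called with all libraries (edgeR adjusted p = 0.06347) but called without control guard cell replicate 2 (0.68) or without control wild-type leaf replicate 1 (0.64). WRKY57 was also higher in guard cells than in wild-type leaves by a log2 value of 1.66 under ABA (edgeR adjusted p = 3.675e-07) and 1.14 at control (adjusted p = 1.398e-05).

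WRKY63, whose product is known to bind the ABF2 promoter, was the least abundant member, with 0.0943 to 1.13 cpm per kb as group means, and it ranked between 47 and 54 among the 72 WRKY genes per kb. It had 2 and 3 counts in guard cells with ABA, against 19 and 21 counts in control guard cells. In mutant leaves it had 44 and 17 counts with ABA and 18 and 45 counts in control, and in wild-type leaves 8 and 17 counts with ABA and 14 and 10 counts in control. The ratio of ABA over control in guard cells, corrected for depth, was 0.167 with an exact 95% interval of 0.0516 to 0.424, which covers counting error only. The edgeR adjusted p was 0.01033, and the call was lost without guard cell ABA replicate 1 (log2 -2.23, adjusted p = 0.07345). In both leaf materials the depth-corrected ratios had intervals that included 1: 0.805 (0.557 to 1.16) in mutant leaves and 1.15 (0.63 to 2.1) in wild-type leaves. The fitted log2 value in mutant leaves was -0.36, or 0.51 without replicate 2 of the control, and neither was called.

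WRKY6 was the only member called in opposite directions in different materials. It had 23.2 and 25.1 cpm in guard cells with ABA, against 47.6 and 48.0 cpm in control guard cells. It had 23.4 and 26.9 cpm in mutant leaves with ABA, against 30.0 and 56.0 cpm in control mutant leaves, and 31 and 40 cpm in wild-type leaves with ABA, against 20.9 and 20.9 cpm in control wild-type leaves. ABA and control libraries did not overlap within any material. WRKY6 fell in guard cells (log2 -0.99, SE 0.225, edgeR adjusted p = 0.003182) and rose in wild-type leaves (log2 0.77, SE 0.224, adjusted p = 0.01167). The call in wild-type leaves was lost without control replicate 2 (0.77, adjusted p = 0.05334) or without ABA replicate 2 (0.57, adjusted p = 0.1016). In mutant leaves it fell by 0.78 on the log2 scale (edgeR adjusted p = 0.02066), but the value was -0.26 without replicate 2 of the control (adjusted p = 0.179), and it also missed the threshold without ABA replicate 1 (-0.68) or 2 (-0.87).

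Of the 10 members, 1 was called for a difference between the guard cell and wild-type leaf responses, where 15% of all tested genes were called, 9.87% higher and 5.18% lower, and that was WRKY6 (log2 -1.75, SE 0.318, edgeR adjusted p = 0.005148). The call held without each of the 8 libraries of this comparison in turn. The difference was negative for 8 of the 10, with log2 values from -0.54 for WRKY53 to -2.71 for WRKY63 among them, and the median over the members was -0.97, against 0.07 over all tested genes. With only the 8 libraries compared in the fit, 8 members were called, all lower in guard cells, so this count depends on which libraries share the estimate of the spread. The 15% of all genes belongs to the fit over 12 libraries, and the share in this smaller fit is not given here. Guard cell markers moved with this comparison (5 of 6 lower in guard cells, as were 4 of 4 epidermis markers), and their part in these values was not tested. In the fit over 12 libraries, 3 of the 44 other WRKY genes tested were called higher and 6 lower, with a median of -0.37.

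For the difference between the mutant and wild-type leaf responses, 4 members were called, all lower in the mutant, where 35.1% of all tested genes were called, 20.1% higher and 15.1% lower. Besides WRKY57 these were WRKY6 (log2 -1.54, SE 0.317, edgeR adjusted p = 0.003249), WRKY33 (log2 -1.27, SE 0.311, adjusted p = 0.008778) and WRKY40 (log2 -1.30, SE 0.426, adjusted p = 0.0356). Without replicate 2 of control mutant leaves 4 were called, against 31.9% of all genes: WRKY57 as above, WRKY6 at -1.03 (edgeR adjusted p = 0.0007991), WRKY33 at -0.76 (adjusted p = 0.004022) and WRKY46 at 0.80 (adjusted p = 0.04932), the last with the opposite sign to its value with all libraries (-0.99). WRKY40 was then at -0.66 and not called (adjusted p = 0.1002), and its call was also lost without either control wild-type leaf library (-1.28 and -1.31), either mutant ABA library (-1.41 and -1.19) or wild-type ABA replicate 2 (-0.90). Without replicate 1 of control mutant leaves WRKY18 was at -0.86, WRKY46 at -1.77 and WRKY53 at -1.08, against -0.55, -0.99 and -0.66 with all libraries. Cell type markers moved with this comparison: the difference was called higher in the mutant for 4 of 5 mesophyll and 4 of 6 guard cell markers, and lower for 3 of 4 epidermis markers and higher for the other. Mesophyll markers summed to 28470 and 24340 cpm in mutant leaves with ABA, against 26080 and 26880 cpm in control mutant leaves, and to 24560 and 20620 cpm in wild-type leaves with ABA, against 36250 and 38010 cpm in their control. Epidermis markers summed to 867 and 1036 cpm in mutant leaves with ABA, against 628 and 553 cpm in control mutant leaves, and to 1793 and 1928 cpm in wild-type leaves with ABA, against 645 and 629 cpm in their control. Their part in the members' values was not tested. The other WRKY genes leaned the same way as the members for this difference, with 5 of 44 called higher and 15 lower with all libraries. Their median log2 value was -0.275, against 0.06 over all tested genes.

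**Figure D4:**
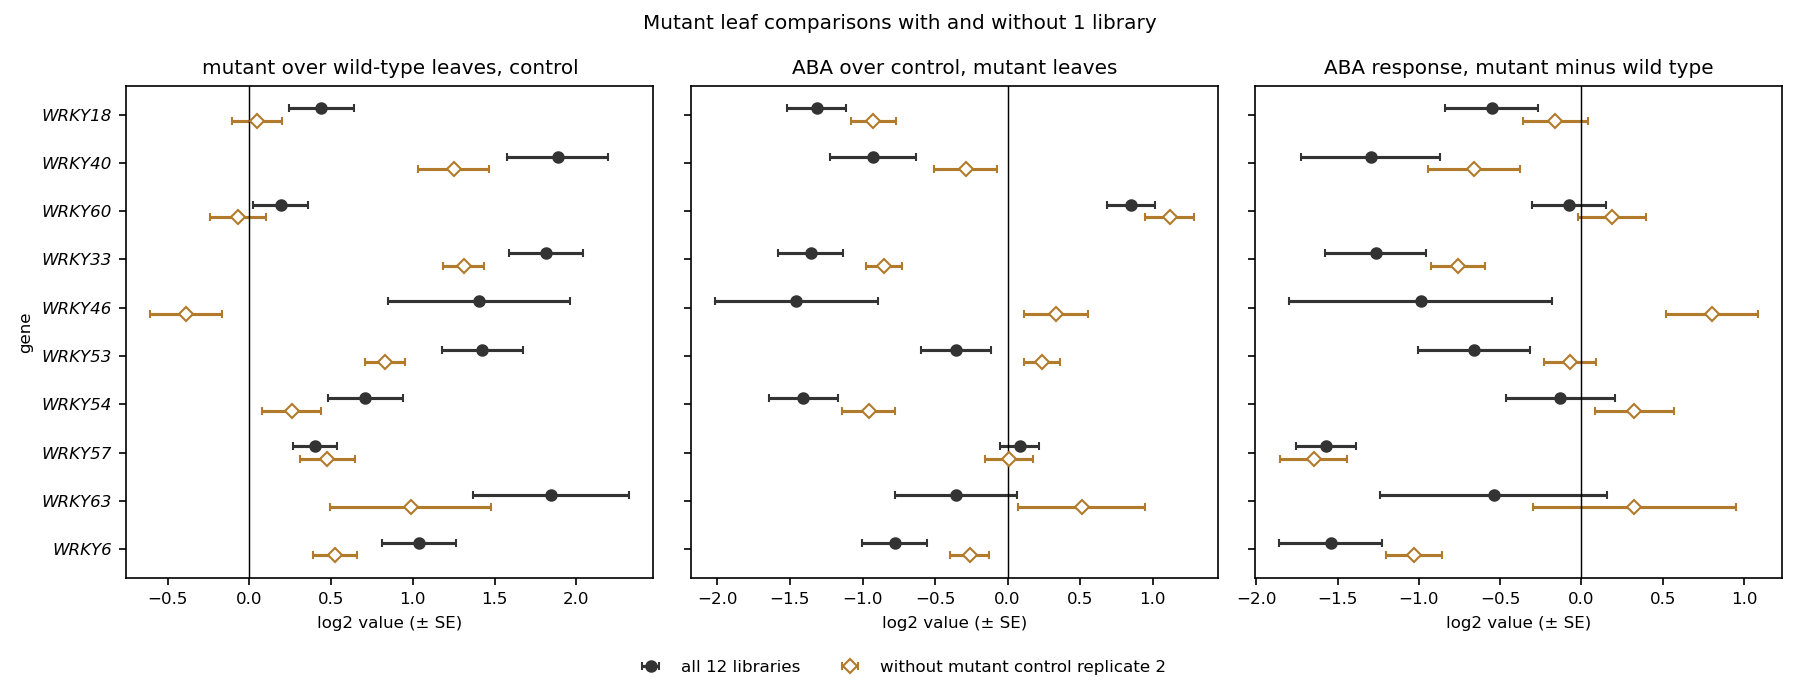
Log2 values (± SE) of the 10 genes in 3 comparisons that use control mutant leaves, with all 12 libraries (filled circles) and without replicate 2 of control mutant leaves (open diamonds). WRKY57 hardly moves between the fits, and WRKY46 changes sign in all 3 panels.

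In the absence of ABA, 6 members were called higher in mutant than in wild-type leaves and the other 4 had positive values too (0.19 to 1.41 on the log2 scale), where 26.5% of all tested genes were called, 12.1% higher and 14.4% lower. Those 4 were at 0.48 (WRKY57), 0.05 (WRKY18), -0.07 (WRKY60) and -0.38 (WRKY46) without replicate 2 of control mutant leaves. With all libraries WRKY40 had the largest value (log2 1.89, SE 0.307, edgeR adjusted p = 0.001855), next to WRKY63 (1.85), WRKY33 (1.82), WRKY53 (1.43), WRKY6 (1.04) and WRKY54 (0.71). Without replicate 2 of control mutant leaves 4 stayed called, against 17.9% of all genes: WRKY33 at 1.31, WRKY40 at 1.25, WRKY53 at 0.83 and WRKY6 at 0.52. The values of WRKY63 and WRKY54 were then 0.99 and 0.26 and not called, and these calls were also lost without control wild-type leaf replicate 2 (1.55 and 0.84), that of WRKY54 also without control wild-type leaf replicate 1 (0.59). Without replicate 1 of control mutant leaves WRKY18 was at 0.75 and WRKY46 at 2.18, against 0.44 and 1.41 with all libraries. Of the salicylic acid and defence list, 3 of 17 genes were called in the same comparison, all higher, and 1 was called without replicate 2. Its summed level was 865 and 2038 cpm in control mutant leaves, against 1079 and 756 cpm in control wild-type leaves, and its part in the members' values was not tested. The wider family leaned the same way: 18 of the 44 other WRKY genes tested were called higher and 0 lower. Their median log2 value was 0.44, against -0.02 over all tested genes. Of the 15 wounding and touch genes, 7 were called higher and 0 lower. These family and wounding counts include the library that stood apart.

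Under ABA, 3 members were called between mutant and wild-type leaves, where 57.3% of all tested genes were called, 30.7% higher and 26.6% lower. WRKY57 was lower in the mutant (log2 -1.17, SE 0.123, edgeR adjusted p = 1.324e-05). WRKY53 was higher (log2 0.76, SE 0.244, adjusted p = 0.01977) and so was WRKY63 (log2 1.31, SE 0.482, adjusted p = 0.03754). The WRKY63 call was lost with the DESeq2 Wald test (log2 1.24, adjusted p = 0.1092). WRKY33 just missed the threshold (log2 0.55, SE 0.221, edgeR adjusted p = 0.05267), and its groups did not overlap. It was called in 6 of 8 runs with other scalings, filters or fits. The WRKY53 call was lost without wild-type ABA replicate 1 or 2 (0.77 and 0.76) or mutant ABA replicate 2 (0.60), and the WRKY63 call without either wild-type ABA library (1.10 and 1.64) or mutant ABA replicate 1 (0.92). Without wild-type ABA replicate 1 WRKY54 (0.87) was called, and without replicate 2 WRKY40 (0.99).

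Guard cells and wild-type leaves were also compared directly, within each condition. At control 4 of 10 were called, where 62.8% of all tested genes were called, 30.2% higher and 32.6% lower: WRKY6 (log2 1.19, edgeR adjusted p = 0.0007392) and WRKY57 were higher in guard cells, and WRKY54 (log2 -1.31, adjusted p = 0.0006759) and WRKY60 (log2 -1.27, adjusted p = 0.0001104) were lower. Under ABA 9 of 10 were called, where 64.6% of all tested genes were called, 32.7% higher and 31.9% lower, with WRKY57 higher and 8 lower, from -0.56 for WRKY6 to -2.54 for WRKY54 on the log2 scale. WRKY63 had a log2 value of -1.86 (edgeR adjusted p = 0.05307). Several of these calls rested on 1 library. Without guard cell ABA replicate 1 those of WRKY40 (-0.99), WRKY33 (-0.78), WRKY46 (-2.27) and WRKY6 (-0.51) were lost, and without replicate 2 those of WRKY40 (-1.06), WRKY46 (-1.96), WRKY53 (-0.72) and WRKY6 (-0.62). Without wild-type ABA replicate 1 that of WRKY46 (-1.81) was lost, and without replicate 2 those of WRKY40 (-0.63) and WRKY6 (-0.36). The WRKY6 call was also lost with upper quartile scaling (-0.46), with total-count scaling (-0.34) and at a mean of at least 50 counts (-0.49), and the WRKY53 call with total-count scaling (-0.61). The salicylic acid and defence list was also lower in guard cells under ABA, in all 13 of the 17 genes that were called.

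The order of the 6 groups differed between members. Control mutant leaves were highest for 7 of the 10 (WRKY18, WRKY40, WRKY33, WRKY46, WRKY53, WRKY54 and WRKY63), and guard cells with ABA were lowest for these same 7. Control mutant leaves overlapped the next group for WRKY18, WRKY46, WRKY53 and WRKY63. Replicate 1 of control mutant leaves alone was not highest for WRKY46, at 8.36 cpm against a mean of 10.9 cpm in control wild-type leaves. The same held against the means of mutant leaves with ABA for WRKY53 (71.0 against 83.9 cpm) and WRKY63 (0.627 against 0.866 cpm). WRKY60 was highest in mutant leaves with ABA (10.01 ± 0.789 cpm, SD, n = 2) and lowest in control guard cells (1.99 ± 0.349 cpm). WRKY57 ran from 36.9 ± 0.557 cpm in guard cells with ABA to 3.70 ± 0.476 cpm in control wild-type leaves, and no 2 neighbouring groups overlapped. WRKY6 was highest in control guard cells (47.8 ± 0.258 cpm) and lowest in control wild-type leaves, and control guard cells overlapped control mutant leaves.

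Per kilobase of exon, the members took different places among the 72 WRKY genes. In guard cells with ABA, WRKY57 ranked 8 at 17.8 cpm per kb, against rank 34 at 3.95 cpm per kb in control guard cells. WRKY54 ranked 36 at 1.54 cpm per kb in guard cells with ABA, against rank 23 at 8.84 cpm per kb in control guard cells. The 10 members together made up 15.7 to 15.9% of all WRKY reads in guard cells with ABA and 18.9 to 19.9% in control guard cells. They made up 27.5 to 29.1% in mutant leaves with ABA, 34.3 and 43% in control mutant leaves, 24.5 to 25.3% in wild-type leaves with ABA and 26.3 to 26.7% in control wild-type leaves.

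Across the 12 libraries, log2 cpm of WRKY40 and WRKY33 were the most alike of the 45 pairs of members (Pearson r = 0.964), followed by WRKY46 and WRKY54 (0.923) and WRKY40 and WRKY53 (0.921). WRKY57 ran against WRKY54 (r = -0.936), and WRKY60 and WRKY18 were nearly unrelated (r = -0.125). These values describe 12 libraries that share 6 group means and depth scaling. The library that stood apart is one of them. Among 17022 genes with at least 5 cpm in some group, the closest to WRKY46 was EXO70B2, an exocyst subunit known from immunity (r = 0.994), and CBP60g, a salicylic acid regulator, was second (0.981). The closest to WRKY57 were AT1G34340 and WNK5, a kinase gene (0.992 each), and the closest to WRKY40 was CNI1, a ubiquitin ligase gene (0.968). HSF A4A, a heat stress factor gene, was closest to WRKY33 (0.985), and the second, AT2G08965, is a non-coding locus that overlaps WRKY33 on the opposite strand (0.983). AAE5 was closest to WRKY60 (0.984), CTF2B to WRKY18 (0.979), AT4G36150 to WRKY54 (0.986), AT3G28850 to WRKY53 (0.980), ABCC3 to WRKY63 (0.972) and AT3G55470 to WRKY6 (0.946).

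Of the 62 other WRKY genes, those with the largest called ABA responses included WRKY8, known from salt and virus responses, which had 8.30 and 10.4 cpm in guard cells with ABA, against 2.82 and 3.25 cpm in control guard cells (log2 1.61, edgeR adjusted p = 4.743e-05). In wild-type leaves it had 11.5 and 17.6 cpm with ABA, against 3.83 and 3.56 cpm in control (log2 1.99, adjusted p = 4.68e-06). WRKY47 fell in guard cells to 3.56 and 3.19 cpm with ABA, against 17.3 and 16.7 cpm in control guard cells (log2 -2.33, edgeR adjusted p = 1.017e-06), and in wild-type leaves (log2 -1.87, adjusted p = 2.201e-06). WRKY29, known from flagellin signalling, fell in all 3 materials, with log2 values of -2.55 in guard cells, -1.35 in mutant leaves (-1.29 without replicate 2 of the control) and -1.82 in wild-type leaves. WRKY19 rose in guard cells (log2 1.60), WRKY45 in wild-type leaves (2.38), and WRKY42 (0.74) and WRKY4 (0.48) in mutant leaves (0.97 and 0.55 without replicate 2 of the control), of which the WRKY42 call was lost without replicate 1 of control mutant leaves (0.54) and the WRKY4 call without mutant ABA replicate 2 (0.34). WRKY30 fell in mutant leaves (-2.14), with a value of -1.40 without replicate 2 of the control. Changes of these genes were not confined to the material named. In wild-type leaves WRKY4 had 33.4 and 39.5 cpm with ABA, against 18.9 and 21.3 cpm in control. WRKY19 had 66.9 and 64.5 cpm there, against 33.8 and 33.8 cpm. In guard cells WRKY45 had 9.74 and 9.66 cpm with ABA, against 6.4 and 5.2 cpm in control. WRKY42 fell in guard cells, to 3.59 and 3.15 cpm with ABA, against 8.21 and 8.14 cpm in control.

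A list of 21 reported partners and targets of the members (20 tested) had 7 genes called higher and 7 lower with ABA in guard cells, 5 and 4 in mutant leaves (6 and 4 without replicate 2 of the control), and 10 and 5 in wild-type leaves, beside the 57.5%, 34.4% and 61.1% of all genes called, with medians of -0.10, -0.02 and 0.35 on the log2 scale. RD29A, a drought gene whose promoter WRKY57 is known to bind, had 4360 and 4300 cpm in guard cells with ABA, against 251 and 302 cpm in control guard cells (log2 3.97, edgeR adjusted p = 6.72e-09). In leaves its log2 change was 2.21 in the mutant (2.02 without replicate 2 of the control) and 4.31 in the wild type. ABI5, a bZIP factor gene repressed by the group IIa factors, had 49.6 and 51.7 cpm in guard cells with ABA, against 2.85 and 3.68 cpm in control guard cells (log2 3.95), with log2 changes of 1.11 in mutant leaves (0.96 without replicate 2 of the control) and 3.91 in wild-type leaves. ABF2, a target of WRKY63, rose by a log2 value of 2.93 in guard cells and 2.96 in wild-type leaves. SIB1, a partner of WRKY33, fell in mutant leaves (log2 -1.05, edgeR adjusted p = 0.00581), with a value of -0.52 without replicate 2 of the control. SIB1 was also lower in guard cells with ABA, at 3.22 and 4.65 cpm, against 14.8 and 17.15 cpm in control guard cells. In wild-type leaves SIB1 had 18.23 and 15.59 cpm with ABA, against 18.3 and 20.64 cpm in control.

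The list of 17 salicylic acid and defence genes had 6 genes called with ABA in guard cells, all lower. In mutant leaves 1 was called higher and 3 lower (7 higher and 1 lower without replicate 2 of the control), and in wild-type leaves 2 higher and 2 lower. These counts stand beside 57.5%, 34.4% and 61.1% of all genes called in guard cells, mutant leaves and wild-type leaves. Its medians were -0.35, -0.17 and 0.32 on the log2 scale. Single genes went both ways. PR2 rose in wild-type leaves (log2 1.84, edgeR adjusted p = 0.003127). In mutant leaves PR2 rose by 1.29 (2.04 without replicate 2 of the control). PBS3 rose in wild-type leaves (log2 1.44, edgeR adjusted p = 0.04753). CYP81F2, which makes indole glucosinolates for defence, fell in all 3 materials, to 4.81 and 5.24 cpm in guard cells with ABA, against 35.2 and 32.5 cpm in control guard cells (log2 -2.75, edgeR adjusted p = 3.417e-06), with log2 values of -2.65 in mutant leaves (-2.15 without replicate 2 of the control) and -2.84 in wild-type leaves. CBP60g fell in guard cells (log2 -1.69, edgeR adjusted p = 0.01618), a call lost without control replicate 1 or without either ABA library, and in mutant leaves the value was -1.54, or -0.36 and not called without replicate 2 of the control. A list of 15 wounding and touch genes, which can respond to handling and spraying, had 6 called higher and 4 lower with ABA in guard cells, 4 and 4 in mutant leaves (3 and 4 without replicate 2 of the control), and 9 and 4 in wild-type leaves, against the same shares of all genes. VSP2 rose in all 3 materials, with log2 values of 5.94, 3.47 and 5.45 in the same order, and TCH3 fell, with -2.50, -2.07 and -2.11. The mutant values were 2.74 for VSP2 and -1.47 for TCH3 without replicate 2 of the control. The part of these genes in the members' values was not tested.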

How the data were processed

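The authors deposited a table of raw read counts per locus, 1 column per library and not normalized, as its whole numbers and unequal totals show. Per the submitters' processing notes, Trim Galore 0.6.5, cutadapt, FastQC, SAMtools, featureCounts and DESeq2 1.26.0 were used with TAIR10. The aligner, annotation release and strand setting are not given in the sources used here. All columns belong to labelled samples. Loci were filtered with edgeR's filterByExpr (minimum 10 counts), scaled with TMM factors and tested in one edgeR 4.0.16 quasi-likelihood fit of 6 group means over 12 libraries (6 residual degrees of freedom, R 4.3.3, limma 3.58.1), two-sided, with Benjamini-Hochberg adjustment over 22341 loci in each of 9 contrasts. SE is the absolute log2 fold change over the square root of F. Log2 cpm for correlations used a prior count of 2. The labels call the replicates biological without saying whether they came from separate plantings, so p-values measure the spread between these libraries. Members and lists were chosen with earlier results of these data known. Other genes are named by size of called change (at most 2 WRKY genes a direction and 3 genes a list in each ABA contrast, no overlap between groups, at least 5 cpm in the higher group). Replicates were not duplicates. The code was tested on simulated data. Sequences and gene models came from RefSeq TAIR10.1, and figures and descriptions used Python 3.11.15, numpy 2.4.6, pandas 2.3.3, scipy 1.17.1 and matplotlib 3.10.9. Alternatives were other scalings, filters, thresholds and sets of libraries, DESeq2 1.42.0, a replicate block and leaving out each library.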

Additional observations from a re-analysis of the deposited data

Results flagged for a closer look

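The ABA response differed between mutant and wild-type leaves, by a test of the difference itself, for 4 members: WRKY57 at -1.57, WRKY6 at -1.54, WRKY40 at -1.30 and WRKY33 at -1.27 on the log2 scale, each lower in the mutant. That of WRKY40 was lost without replicate 2 of control mutant leaves, and the other 3 were called with and without it. The guard cell response differed from that of wild-type leaves for WRKY6, at -1.75 on the log2 scale, lower in guard cells.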

How the results depend on the processing

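For mutant against wild-type leaves under ABA, 3 members were called, but 5 with upper quartile or total-count scaling, 7 without a filter beyond 1 count, 6 with only the libraries compared and 1 at an adjusted p under 0.01. With the replicate block this count was 6, and the block moved no other count of members by over 1.5 times. The replicate numbers did not pair the samples: correlations of replicate differences between groups ran from -0.167 to 0.238 over 15 group pairs, 4 of them over 0.1. For the guard cell against the wild-type leaf response, 1 was called, but 2 with total-count scaling, 3 with DESeq2, 5 without a filter and 8 with only the libraries compared. With only the libraries compared, 7 were called for guard cells against wild-type leaves at control (4 with all libraries) and 2 for mutant against wild-type leaves at control (6 with all). For guard cells against wild-type leaves under ABA, 5 were called at an adjusted p under 0.01 and 5 where the absolute log2 value also had to reach 1, where 9 were called otherwise. That minimum fold left 5 for ABA in guard cells, 3 in mutant leaves and 2 in wild-type leaves. The shares of all genes called under these settings are not given here, so these counts have no background beside them.

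Leaving out 1 library at a time gave 6 to 8 called members for ABA in guard cells, 4 to 8 in mutant leaves, 4 to 5 in wild-type leaves, 1 to 2 for the material difference, 3 to 7 for the genotype difference, 4 for guard cells against wild-type leaves at control, 5 to 8 for the same under ABA, 4 to 8 for mutant against wild-type leaves at control and 2 under ABA. Where a group kept 1 library, it was taken to vary like the others. Shares of all genes are given above only for the fit without replicate 2 of control mutant leaves, and there not for ABA in mutant leaves. The other counts with 1 library left out have no such share beside them, so they are no result about the members.

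No fold change of a member that was called with all libraries and TMM scaling changed sign under an alternative run. The WRKY46 genotype difference, not called there, was called with opposite signs without replicate 1 and without replicate 2 of control mutant leaves. WRKY33 in guard cells against wild-type leaves at control was -0.02 with TMM, 0.0061 with RLE, 0.12 with upper quartile, 0.37 with total-count scaling, 0.0535 at a mean of at least 50 counts, 0.023 with only the libraries compared and 0.0056 with DESeq2. With total-count scaling WRKY18 and WRKY53 were at 0.081 and 0.093 in that comparison, WRKY57 at -0.072 for ABA in mutant leaves and WRKY18 at 0.0069 for mutant against wild-type leaves under ABA. That scaling moved the median of all genes to 0.37 for guard cells against wild-type leaves at control, -0.32 for ABA in guard cells and -0.22 in wild-type leaves, against -0.01, -0.02 and -0.08 with TMM.

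With 1 library left out, values that changed sign ranged as follows on the log2 scale. For guard cells against wild-type leaves at control, WRKY40 ran from -0.045 to 0.37 and WRKY33 from -0.18 to 0.11. For ABA in wild-type leaves, WRKY40 ran from -0.027 to 0.66, WRKY33 from -0.22 to 0.024 and WRKY63 from -0.14 to 0.52. For ABA in mutant leaves, WRKY46 ran from -2.24 to 0.33, WRKY53 from -0.78 to 0.24 and WRKY63 from -0.90 to 0.51. For the genotype difference, WRKY60 ran from -0.30 to 0.19, WRKY46 from -1.77 to 0.80, WRKY54 from -0.47 to 0.33 and WRKY63 from -1.08 to 0.33. For mutant against wild-type leaves, WRKY60 ran from -0.071 to 0.42 and WRKY46 from -0.38 to 2.18 at control, and WRKY18 from -0.34 to 0.11 under ABA. The cause of these changes was not tested. With 2 libraries a group, depth limits WRKY63 most.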
